A study of Arabidopsis thaliana with 39 samples.

Results

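Major latex protein-like (MLP) genes encode small plant proteins of the Bet v 1 fold, and 9 of them were followed here across 36 RNA libraries of Arabidopsis thaliana seedlings. The genes are MLP28 (AT1G70830), MLP31 (AT1G70840), MLP34 (AT1G70850), MLP43 (AT1G70890), MLP165 (AT1G35260), MLP168 (AT1G35310), MLP328 (AT2G01520), MLP329 (AT2G01530) and MLP423 (AT1G24020). They were chosen by gene identifier, 9 of the 32678 genes counted, with their counts over the 12 groups already known. Their levels and changes are therefore given as a description, and no p-value is printed for a member. Whether a member passed the threshold below is given only to describe the fit, and supports nothing.

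The Bet v 1 fold surrounds a hydrophobic pocket that can hold small ligands, and the abscisic acid receptors of the PYR/PYL family share it. MLP proteins are named after abundant proteins of opium poppy latex, and the ligands of most Arabidopsis members are not settled. MLP43 is known as a positive regulator of abscisic acid responses and drought tolerance, and MLP423 has been linked to tolerance of drought and salt. MLP328 and MLP329 were described earlier as genes raised by cis-cinnamic acid, with roles in vegetative growth and flowering time. Methylglyoxal (MG) is a reactive by-product of glycolysis. Glyoxalase I (GLYI) and glyoxalase II (GLYII) convert it with glutathione to lactate.

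Seedlings were 5 days old, grown on solid half-strength MS medium, and belonged to 4 genotypes. These were the glyI2 mutant, both lines labelled 35S::GLYI2 35S::GLYII4 (#1, called OE1, and #5, called OE5), in which the constitutive cauliflower mosaic virus 35S promoter is named as the driver, and wild type (WT). Each genotype received 100 mM NaCl for 12 h, 200 µM MG for 12 h, or mock treatment, which makes 12 groups of 3 libraries. The labels name no separate cultures, so a p-value here measures the spread between libraries, which may be technical. Chromatin was also profiled in 3 samples, not used here.

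Deposited counts summed to between 21024878 and 22383131 per library. GLYI2 (AT1G08110) averaged 7.93 ± 2.25 CPM (counts scaled to library size by TMM) in mock glyI2, 28.1 ± 6.98 CPM in OE1 and 51.3 ± 6.72 CPM in OE5, against 61.3 ± 8.23 CPM in WT (SD, n = 3 each). GLYI2 was thus not higher in the libraries labelled OE1 and OE5, against their label. GLYII4 (AT2G43430) averaged 31.0 ± 4.08 CPM in mock OE1 and 32.1 ± 5.99 CPM in mock OE5, against 10.7 ± 1.53 CPM in mock WT. With MG it averaged 300 ± 74.3 CPM in OE1 and 265 ± 91.0 CPM in OE5, against 11.7 ± 1.75 CPM in WT. With NaCl it averaged 27.5 ± 7.69 CPM in OE1 and 34.0 ± 6.81 CPM in OE5, against 9.97 ± 1.42 CPM in WT. In 7 libraries, all of replicate 3, the clock gene CCA1 (AT2G46830) lay between -1.91 and 1.08 log2 CPM, against 4.24 to 6.31 in the other 29. These were the NaCl libraries of glyI2, OE1, OE5 and WT and the mock libraries of glyI2, OE1 and OE5.

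The MLP genes lie in groups in the genome. Of the 9, 7 are on chromosome 1 and 2 on chromosome 2, by a RefSeq gene table in which all 9 identifiers matched. That table is of another assembly release (TAIR10.1) than the labels name, so no coordinates are given. MLP28, MLP31 and MLP34 are direct neighbours, and 4 genes separate MLP34 from MLP43, among them the family genes AT1G70860, AT1G70870 and AT1G70880. MLP328 and MLP329 have 1 gene between them, a long non-coding RNA, and MLP165 and MLP168 have 5. No member overlaps another gene in that table. No source used here states how reads matching several near-identical copies were counted, and values of neighbouring copies are uncertain for that reason.

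In WT mock seedlings the members spanned a wide range of levels, compared per length in the authors' FPKM. MLP34 averaged 341 ± 96.0 FPKM, MLP28 257 ± 27.6, MLP328 228 ± 51.5 and MLP423 176 ± 10.6 (SD, n = 3 each). MLP329 followed at 148 ± 12.3 FPKM and MLP43 at 118 ± 32.2, then MLP165 at 15.0 ± 0.80 and MLP168 at 7.22 ± 1.34. Neighbours in this order overlapped in their ranges, except MLP423 and MLP329, MLP43 and MLP165, and MLP165 and MLP168. MLP31 was at 0 in 34 of the 36 libraries and had 1 read in each of the other 2, so it failed the expression filter and 8 of the 9 members were tested.

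The order was different after MG. In glyI2 seedlings given MG, MLP28 averaged 266 ± 39.0 FPKM, MLP423 217 ± 38.5 and MLP43 144 ± 26.8. MLP34, first in WT mock, averaged 8.46 ± 0.42 FPKM there and lay beside MLP168 at 8.62 ± 1.71 and MLP165 at 8.48 ± 0.39. MLP328 averaged 1.03 ± 0.45 FPKM and MLP329 0.479 ± 0.039. Over the 12 group means, the highest was 310 times the lowest for MLP329, 221 times for MLP328 and 40.4 times for MLP34. The other 5 detected members stayed within 1.71 times (MLP28) to 2.57 times (MLP168).

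**Figure D1:**
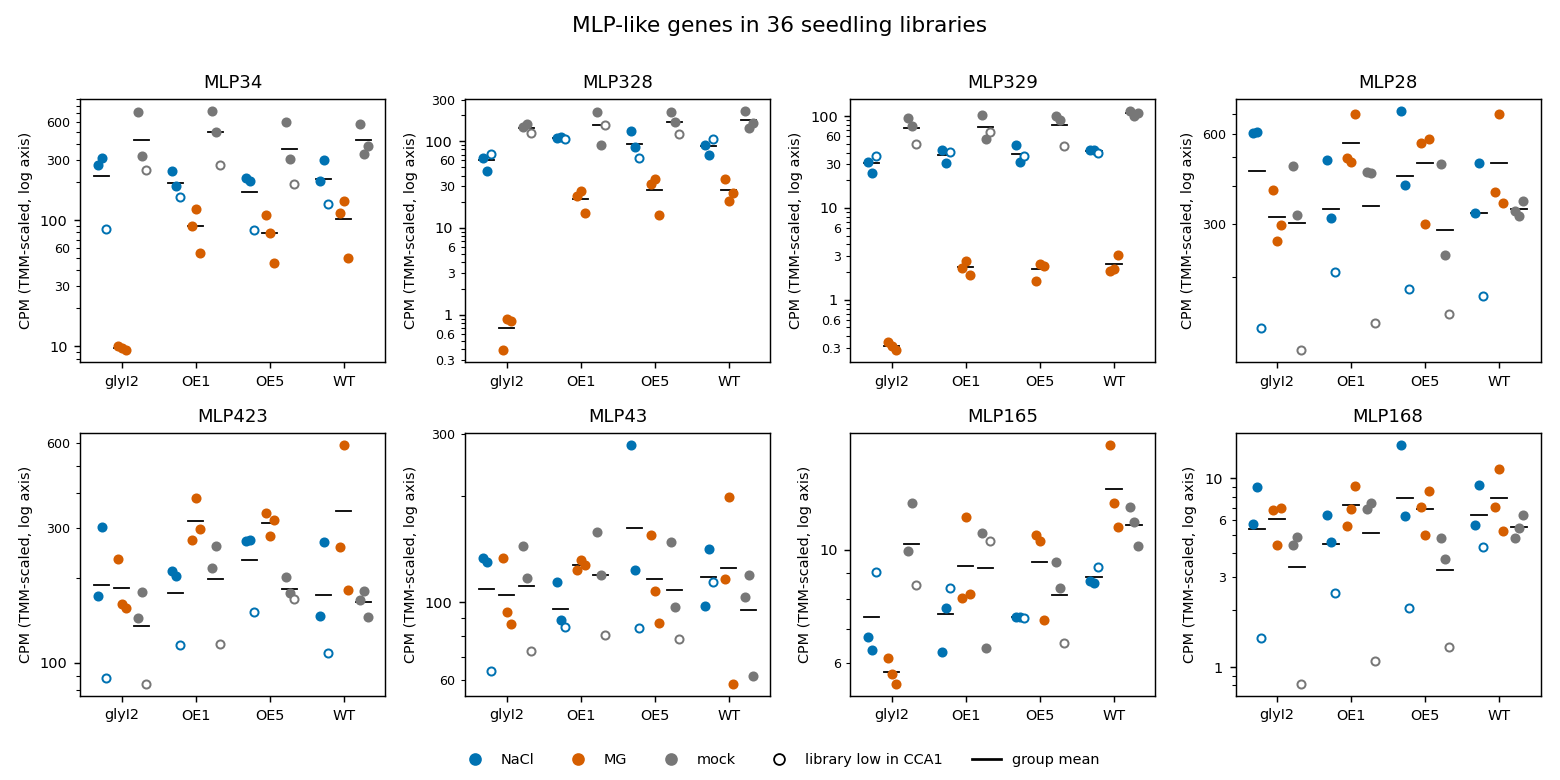
TMM-scaled CPM on log axes of the 8 detected MLP-like genes in each of 36 libraries, by genotype and within it NaCl, MG and mock; open circles are the 7 libraries low in CCA1 and bars are group means (n = 3). MLP34, MLP328 and MLP329 are lower with MG than with mock in every genotype and lowest in glyI2, while the MG libraries of MLP28, MLP43 and MLP168 overlap those of mock in at least 1 genotype.

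MLP329 had the largest fitted MG difference of the members in every genotype, although in glyI2 that of MLP328 was within the standard errors. It read 0.345, 0.313 and 0.280 CPM in glyI2 with MG, from 8, 8 and 7 reads, against 94.1, 78.7 and 49.7 CPM in glyI2 mock. OE1 libraries had 2.22, 2.67 and 1.86 CPM with MG, against 102, 56.0 and 67.8 in mock. OE5 libraries had 1.61, 2.47 and 2.34 CPM with MG, against 99.1, 91.0 and 47.0 in mock. In WT, MLP329 had 2.04, 2.16 and 3.10 CPM with MG, against 113, 100 and 107 in mock. The MG libraries lay below all mock libraries of their genotype, and those of glyI2 lay below the MG libraries of the other 3 genotypes. The log2 fold change of MLP329, MG over mock, was -7.87 ± 0.37 (SE) in glyI2, -5.06 ± 0.31 in OE1, -5.20 ± 0.31 in OE5 and -5.44 ± 0.31 in WT.

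MLP328, the neighbour of MLP329, was also lower with MG. Its glyI2 libraries with MG had 0.388, 0.899 and 0.841 CPM, from 9, 23 and 21 reads, against 144, 159 and 125 CPM in glyI2 mock. OE1 with MG had 23.4, 26.5 and 14.7 CPM of MLP328, against 219, 91.3 and 153 in OE1 mock. OE5 with MG had 32.3, 36.7 and 14.1 CPM, against 214, 166 and 120 in OE5 mock. WT with MG had 36.5, 20.5 and 25.0 CPM, against 221, 142 and 163 in WT mock. No MG library overlapped the mock libraries of its genotype, and the glyI2 libraries with MG stood apart from all others. Log2 fold changes of MLP328 were -7.63 ± 0.47 in glyI2, -2.84 ± 0.36 in OE1, -2.59 ± 0.36 in OE5 and -2.68 ± 0.36 in WT.

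MLP34, of the chromosome 1 group, was the third member lower with MG in each genotype. With MG its glyI2 libraries had 10.04, 9.69 and 9.29 CPM, against 710, 320 and 249 in glyI2 mock. The OE1 libraries had 89.7, 122 and 54.9 CPM with MG, against 726, 499 and 272 in mock. The OE5 libraries had 110, 79.3 and 46.1 CPM with MG, against 595, 303 and 191 in mock. MLP34 had 114, 142 and 50.2 CPM in WT with MG, against 574, 336 and 386 in WT mock. MG and mock libraries did not overlap in any genotype, and the spread within mock groups was wide. Log2 fold changes of MLP34 were -5.46 ± 0.61 in glyI2, -2.49 ± 0.53 in OE1, -2.21 ± 0.52 in OE5 and -2.08 ± 0.52 in WT. The call in WT ended without WT MG replicate 3, where the value was -1.75, and that in OE5 without OE5 mock replicate 1, where it was -1.65.

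MLP165, a low member, was called lower with MG in glyI2 alone. It had 6.12, 5.70 and 5.45 CPM in glyI2 with MG, against 9.96, 12.4 and 8.52 in glyI2 mock, so these groups did not overlap. WT libraries had 16.1, 12.4 and 11.1 CPM with MG, against 12.1, 11.4 and 10.2 in mock, and overlapped. The log2 fold change of MLP165 with MG was -0.84 ± 0.21 in glyI2, 0.01 ± 0.21 in OE1, 0.22 ± 0.21 in OE5 and 0.23 ± 0.21 in WT.

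The remaining 4 detected members were not called with MG in any genotype. MLP423 had 258, 594 and 182 CPM in WT with MG, against 167, 179 and 145 in WT mock, and its log2 fold change was 1.07 ± 0.41. It was 0.44 ± 0.41 in glyI2, 0.69 ± 0.41 in OE1 and 0.78 ± 0.41 in OE5. The MG libraries of MLP423 lay above mock in OE1, OE5 and WT and overlapped mock in glyI2. In WT the gene was called higher without the 7 libraries low in CCA1, at 1.07, and without WT MG replicate 3, at 1.38. Without WT MG replicate 2, the library at 594 CPM, the value was 0.43 and was not called. MLP28, the neighbour of MLP34 on the other side of MLP31, had 391, 263 and 298 CPM in glyI2 with MG, against 469, 321 and 114 in mock. In WT it had 384, 697 and 351 CPM with MG, against 332, 319 and 357 in mock. These MLP28 groups overlapped, while in OE1 its MG libraries lay above mock. Log2 fold changes of MLP28 lay between 0.07 ± 0.55 in glyI2 and 0.74 ± 0.56 in OE5. MLP43 lay between -0.09 ± 0.40 in glyI2 and 0.39 ± 0.40 in WT, and MLP168 between 0.49 ± 0.66 in WT and 1.07 ± 0.67 in OE5. The MG libraries of MLP168 lay above mock in OE5 alone. Standard errors of 0.40 to 0.67 limit what could be detected for these genes.

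A gene was called at an adjusted p under 0.05 in edgeR's quasi-likelihood test, fitted over 20748 genes. Of the 8 tested members, 4 were called lower with MG in glyI2, and 3 each in OE1, OE5 and WT, where 14.8%, 3.94%, 4.09% and 4.26% of all tested genes were lower. No member was called higher with MG in edgeR's test, where 14.4% of all tested genes were higher in glyI2, 5.85% in OE1, 4.74% in OE5 and 6.42% in WT. At an unadjusted p under 0.05, 1 member was higher in WT (MLP423) and 0 in the other genotypes, and DESeq2 called none higher. Because the members were chosen with these values known, nothing is read from these counts. Without the 7 libraries low in CCA1, the members called lower with MG again numbered 4, 3, 3 and 3 in glyI2, OE1, OE5 and WT.

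**Figure D2:**
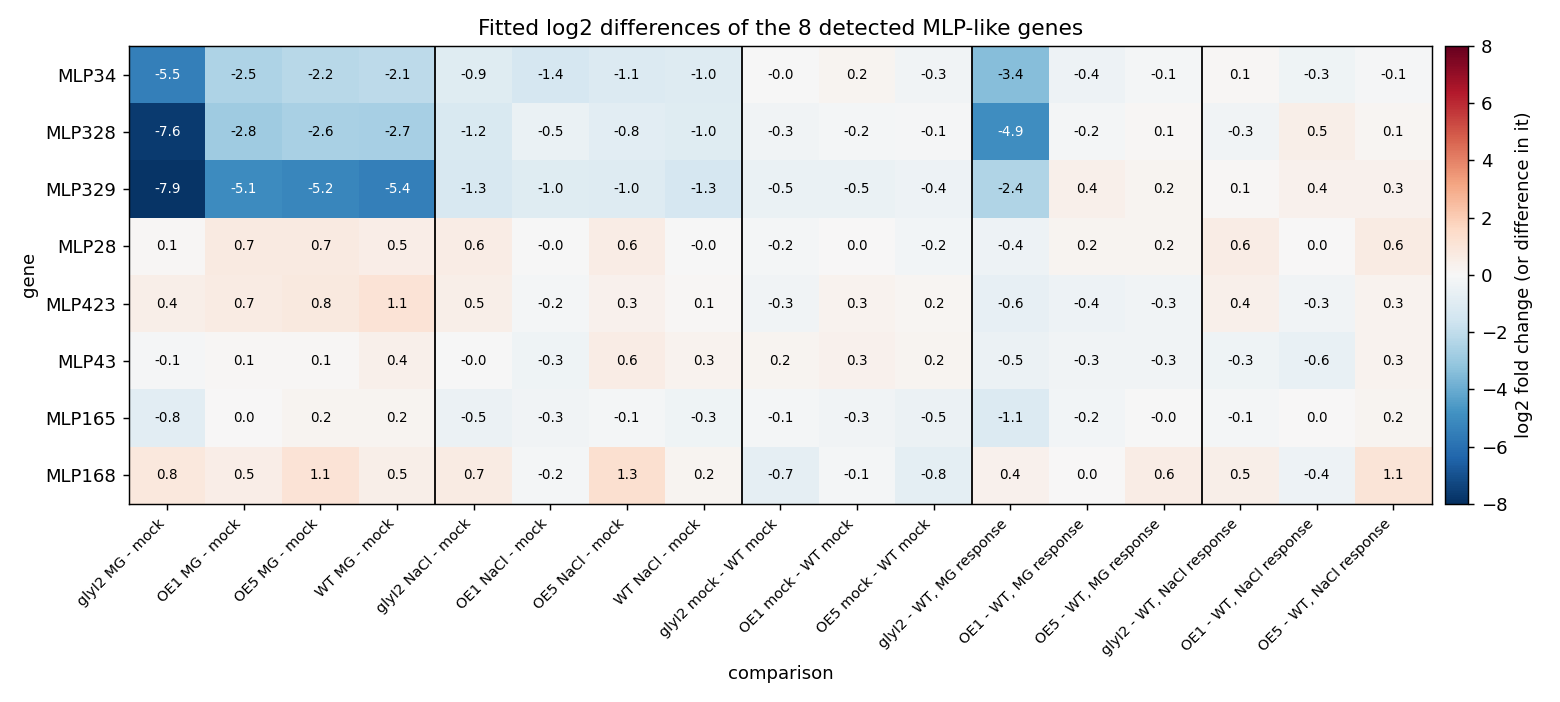
Heat map of fitted log2 differences (colour, values printed to 1 decimal) for the 8 detected MLP-like genes (rows) in 17 comparisons (columns): 8 treatments over mock, 3 lines over WT in mock, and 6 differences in response between a line and WT. The glyI2 column with MG holds -5.5, -7.6 and -7.9 for MLP34, MLP328 and MLP329, and the same genes stand out in the column of the glyI2 minus WT response to MG.

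The difference in MG response between glyI2 and WT addresses how loss of GLYI2 alters the seedlings' answer to MG. It was -4.95 ± 0.53 on the log2 scale for MLP328, -3.38 ± 0.73 for MLP34, -2.42 ± 0.44 for MLP329 and -1.07 ± 0.29 for MLP165. These 4 of 8 members were called lower, where 1.5% of all tested genes were lower and 2.47% higher. Values for the rest ran from -0.64 ± 0.58 for MLP423 through -0.48 ± 0.57 for MLP43 and -0.43 ± 0.78 for MLP28 to 0.36 ± 0.94 for MLP168. Both glyI2 and WT enter through their own mock libraries. The MLP165 call ended in 10 of 12 fits that left out 1 library each, with values between -1.19 and -0.90 over the 12. Only leaving out glyI2 mock replicate 3 or WT MG replicate 3 kept that call. It also ended with only the compared groups in the fit (-0.99) and with no expression filter (-1.07). The calls of MLP34, MLP328 and MLP329 held in each of those 12 fits.

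For the libraries labelled OE1 and OE5, the members' MG response was set against that of WT in the same way. The OE1 minus WT difference lay between -0.41 ± 0.71 (MLP34) and 0.39 ± 0.39 (MLP329), and the OE5 minus WT difference between -0.29 ± 0.58 (MLP423) and 0.58 ± 0.94 (MLP168). edgeR called 0 members in either line, at an unadjusted p under 0.05 there were 0, and DESeq2 called 0. In each line 0.00482% of all tested genes were called, in either direction.

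With NaCl, MLP329, MLP328 and MLP34 had smaller fitted differences from mock than with MG in every genotype. MLP329 had 31.3, 24.1 and 36.7 CPM in glyI2 with NaCl, against 94.1, 78.7 and 49.7 in mock. OE1 had 42.3, 31.1 and 40.3 CPM with NaCl, against 102, 56.0 and 67.8 in mock. OE5 had 48.6, 31.3 and 37.0 CPM with NaCl, against 99.1, 91.0 and 47.0 in mock. WT had 42.8, 42.9 and 39.9 CPM with NaCl, against 113, 100 and 107 in mock. The NaCl libraries of MLP329 lay below mock in glyI2, OE1 and WT and overlapped mock in OE5. Log2 fold changes of MLP329 with NaCl were -1.27 ± 0.26 in glyI2, -0.99 ± 0.26 in OE1, -1.02 ± 0.26 in OE5 and -1.35 ± 0.26 in WT, and it was called in all 4. In OE1 the call ended without OE1 mock replicate 1 (-0.71) or OE1 NaCl replicate 2 (-0.86). In OE5 it ended without OE5 mock replicate 1 (-0.83), OE5 mock replicate 2 (-0.91) or OE5 NaCl replicate 2 (-0.88). With only the compared groups in the fit, the calls in glyI2 (-1.25), OE1 (-0.98) and OE5 (-1.02) ended, while that in WT held.

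MLP328 had 63.0, 45.3 and 71.5 CPM in glyI2 with NaCl, against 144, 159 and 125 in mock, a log2 fold change of -1.25 ± 0.34. This call ended without glyI2 mock replicate 2 (-1.17), glyI2 NaCl replicate 1 (-1.29) or glyI2 NaCl replicate 2 (-1.08). WT had 90.9, 69.5 and 105 CPM of MLP328 with NaCl, against 221, 142 and 163 in mock, and -0.99 ± 0.34 was not called. It was called with DESeq2 (-0.99) and with only the compared groups in the fit (-0.99). Neither WT nor glyI2 libraries overlapped between NaCl and mock. MLP328 had -0.51 ± 0.34 in OE1 and -0.84 ± 0.34 in OE5. MLP34 with NaCl had -0.95 ± 0.51 in glyI2, -1.35 ± 0.51 in OE1, -1.12 ± 0.51 in OE5 and -1.02 ± 0.51 in WT, and none was called in the fit without a replicate term.

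Members called lower with NaCl numbered 2 in glyI2 and 1 each in OE1, OE5 and WT, where 2.59%, 2.35%, 2.23% and 2.69% of all tested genes were lower. None was called higher by edgeR, where 4.45%, 2.98%, 3.24% and 4.43% of all tested genes were higher in glyI2, OE1, OE5 and WT. At an unadjusted p under 0.05, 0 members were higher in any genotype, and DESeq2 called 0 higher. MLP168 in OE5, with 15.1, 6.35 and 2.05 CPM with NaCl against 4.81, 3.73 and 1.28 in mock, had a log2 fold change of 1.26 ± 0.67, and was called higher without the libraries low in CCA1, at 1.38. Without OE5 NaCl replicate 1, the library at 15.1 CPM, the value was 0.36 and was not called. Differences in NaCl response from WT lay between -0.34 ± 0.57 (MLP43) and 0.62 ± 0.78 (MLP28) for glyI2. They lay between -0.62 ± 0.57 (MLP43) and 0.48 ± 0.47 (MLP328) for OE1, and between -0.09 ± 0.71 (MLP34) and 1.06 ± 0.94 (MLP168) for OE5. For each line edgeR called 0 members and 0% of all tested genes, with 0 members at an unadjusted p under 0.05 and 0 called by DESeq2.

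In mock seedlings the log2 difference of a member from WT lay between -0.72 ± 0.67 (MLP168) and 0.23 ± 0.40 (MLP43) in glyI2, between -0.50 ± 0.25 (MLP329) and 0.33 ± 0.40 (MLP43) in OE1, and between -0.77 ± 0.67 (MLP168) and 0.19 ± 0.40 (MLP43) in OE5. edgeR called 0 members in each line, where 0.0434%, 0.053% and 0.0386% of all tested genes were called in glyI2, OE1 and OE5. At an unadjusted p under 0.05 there was 1 in glyI2 (MLP329), 0 in OE1 and 1 in OE5 (MLP165), and DESeq2 called 0 in each.

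Shares within the neighbour pairs showed how unequal the changes were. MLP34 held 3.13 ± 0.54% of the summed FPKM of MLP34 and MLP28 in glyI2 with MG, against 60.4 ± 9.35% in glyI2 mock. It held 17.9 ± 5.37% in WT with MG, against 56.4 ± 6.78% in WT mock (SD, n = 3 each). In OE1 the share was 14.7 ± 6.72% with MG, against 61.1 ± 6.66% in mock, and in OE5 15.4 ± 7.09% with MG, against 56.8 ± 0.25% in mock. With NaCl it lay between, at 35.1 ± 3.88% in glyI2, 38.5 ± 4.43% in OE1, 30.02 ± 5.54% in OE5 and 41.0 ± 3.09% in WT. No NaCl or MG library reached the mock libraries of its genotype.

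MLP329 held 9.18 ± 3.15% of the summed FPKM of MLP329 and MLP328 in WT with MG, against 39.8 ± 3.97% in WT mock. OE1 had 10.3 ± 1.44% with MG, against 35.0 ± 4.06% in mock, and OE5 had 8.96 ± 5.37% with MG, against 33.2 ± 3.68% in mock. In glyI2 the share was 34.1 ± 12.7% with MG, against 35.2 ± 5.71% in mock, where both genes had 7 to 23 reads per MG library. In the mutant the MG and mock shares thus overlapped, while in the other genotypes every MG library lay below mock. The summed FPKM of the 9 genes was 654 ± 101 in glyI2 with MG, against 1107 ± 263 in glyI2 mock, and 895 ± 263 in WT with MG, against 1291 ± 151 in WT mock.

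**Figure D3:**
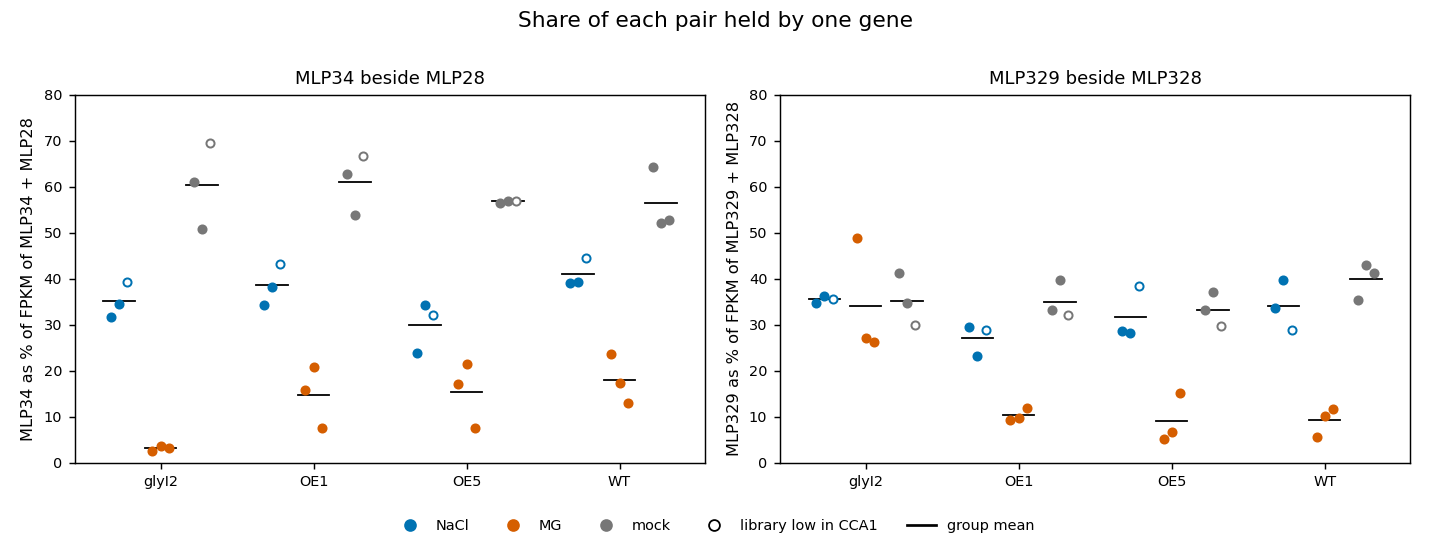
Share (%) of the summed FPKM of MLP34 plus MLP28 held by MLP34 (left), and of MLP329 plus MLP328 held by MLP329 (right), in each of 36 libraries by genotype and within it NaCl, MG and mock; open circles are libraries low in CCA1 and bars are group means (n = 3). MLP34 holds 3.13% on average in glyI2 with MG, and MLP329 holds 34.1% there against 8.96% to 10.3% in the other genotypes with MG.

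Libraries low in CCA1 were set against the mean of the other libraries of their group. MLP28 was lower in all 7, by -2.17 to -0.91 log2 CPM, and MLP168 in all 7, by -2.64 to -0.73. MLP34 (-1.77 to -0.49), MLP423 (-1.37 to -0.17) and MLP43 (-1.14 to -0.04) were also lower in 7 of 7. MLP165 was lower in 3, MLP328 in 4 and MLP329 in 5 of the 7. WT mock and all MG groups hold no such library, while the other mock groups hold 1 each. Their part in the fold changes of MLP28 and MLP168 was not tested beyond the fits that leave them out. In those fits the MG change of MLP28 was -0.28 in glyI2, 0.29 in OE1, 0.42 in OE5 and 0.50 in WT.

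**Figure D4:**
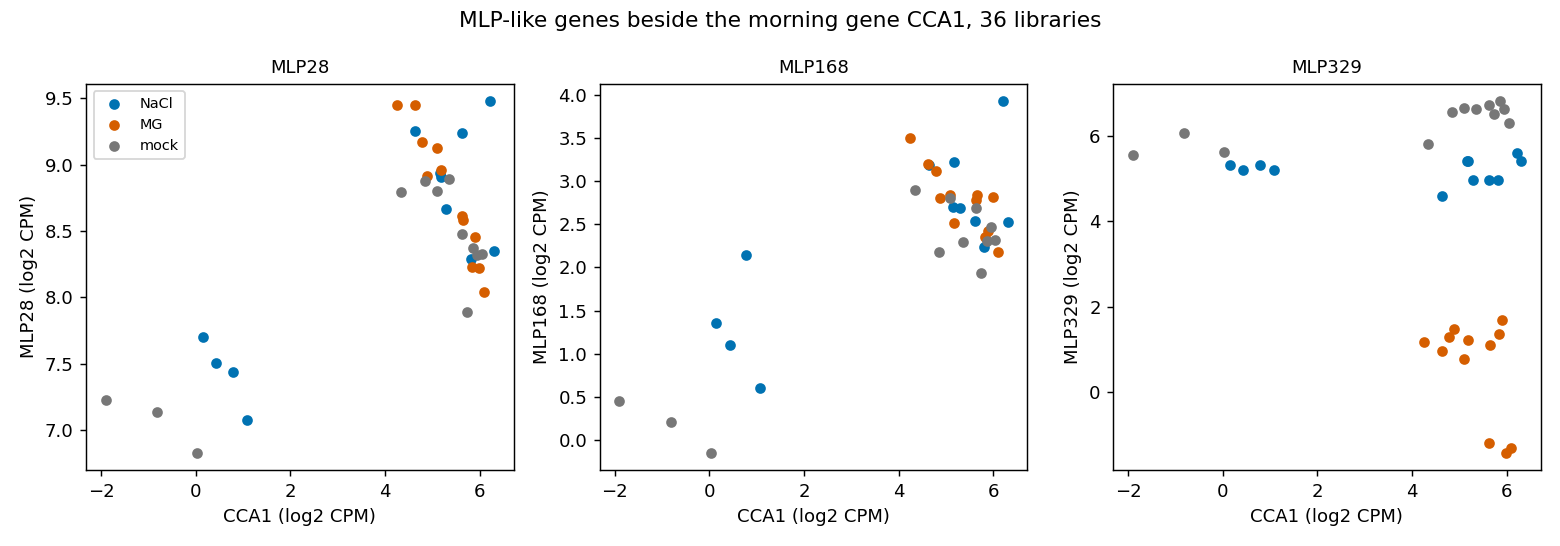
Log2 CPM of MLP28, MLP168 and MLP329 (vertical axes) against log2 CPM of CCA1 (horizontal axes) in 36 libraries, coloured by treatment. In each of the 7 libraries with CCA1 below 1.08 log2 CPM, MLP28 and MLP168 were below the mean of the other libraries of the same group. MLP329 separates the MG libraries from the others, while its NaCl and mock libraries overlap. It was below its group mates in 5 of the 7.

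Root markers moved with MG as well. Of 10 listed root genes, 8 were called lower with MG in glyI2, 5 in OE1, 6 in OE5 and 6 in WT. Of all tested genes, 14.8%, 3.94%, 4.09% and 4.26% were lower with MG in these genotypes. With NaCl 1, 0, 0 and 0 root genes were called lower, beside 2.59%, 2.35%, 2.23% and 2.69% of all tested genes. The summed level of the 10 root genes was 1591 to 2735 CPM in glyI2 with MG, against 5403 to 7804 in glyI2 mock, and 3755 to 4572 CPM in WT with MG, against 6473 to 8381 in WT mock. In OE1 it was 3960 to 5129 CPM with MG, against 5814 to 8355 in mock. In OE5 it was 3540 to 5733 CPM with MG, which overlapped 3488 to 8375 in mock. With NaCl it was 3015 to 4547 CPM in glyI2, 3815 to 5312 in OE1 and 3649 to 4382 in WT, each below mock. In OE5 with NaCl it was 2722 to 8176 CPM and overlapped mock. PYK10, a β-glucosidase of root endoplasmic reticulum bodies, made up most of it. Without PYK10 the sum was 36.6 to 47.1 CPM in glyI2 with MG, against 86.2 to 199 in mock, and 44.0 to 54.8 CPM in WT with MG, against 119 to 121 in mock. With NaCl it was 85.8 to 113 CPM in glyI2, which overlapped mock, and 77.7 to 102 CPM in WT, below mock. In OE1 the sum without PYK10 was 57.1 to 60.6 CPM with MG and 77.0 to 102 with NaCl, below 124 to 178 in mock. In OE5 it was 42.5 to 60.0 CPM with MG and 82.5 to 96.4 with NaCl, below 112 to 160 in mock. The root hair markers COBL9 and EXPA7 were at 0 in 1 library each. Of 8 shoot markers, 1 was called lower in glyI2 with MG and 0 in the other genotypes. In whole seedlings, fewer cells of a type and less RNA per cell cannot be told apart, and the part of the root genes in the MLP values was not tested.

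The pattern of each member over the 36 libraries was compared with every other tested gene by Pearson correlation of log2 CPM. The points share groups and scaling, so r is a description. MLP329 was most like AT5G23830 (r = 0.98), AT4G15390 (0.98) and AT1G77330 (0.98). MLP34 was most like AT4G11320 (0.97), PGL4 (0.96) and DR4 (0.95), and MLP328 most like DR4 (0.95), AT3G32980 (0.94) and AT1G22440 (0.94). MLP28 was most like RBL3 (0.96), LTP (0.95) and ARLA1C (0.94), and MLP168 most like BTI2 (0.91), RAB7B (0.90) and GDPD4 (0.90). MLP423 was most like PLA-I{gamma}1 (0.89), OPT3 (0.88) and AT5G57815 (0.87). MLP43 was most like AT2G20870 (0.85), AT1G12570 (0.84) and GLC (0.84), and MLP165 most like CRK25 (0.74), AT2G20030 (0.74) and PnsB5 (0.74). By Spearman correlation or by group means, none of the genes named for MLP28, MLP165 and MLP168 stayed among the 3 most alike. Among the members themselves, MLP34 and MLP328 had r = 0.92, MLP328 and MLP329 0.91 and MLP28 and MLP168 0.91. The neighbours MLP28 and MLP34 had r = 0.07.

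A further 19 genes of the family were listed, and 12 passed the filter. The other 7 had at most 6 reads in any library. Of the 12, 7 were called lower with MG in glyI2, 2 in OE1, 4 in OE5 and 5 in WT, beside 14.8%, 3.94%, 4.09% and 4.26% of all tested genes. In glyI2, OE5 and WT these include AT1G30990 and AT1G70860, which passed the filter only through mock libraries. None of the 12 was called higher with MG by edgeR or DESeq2, where edgeR called 14.4%, 5.85%, 4.74% and 6.42% of all tested genes. At an unadjusted p under 0.05, 1 was higher in OE1 and 1 in OE5 (AT4G23680 in both, chosen after its values were seen), and 0 in glyI2 and WT. With NaCl 1 was called lower in glyI2, 1 lower and 1 higher in OE1, 1 lower in OE5 and 2 lower in WT. Of all tested genes, 2.59%, 2.35%, 2.23% and 2.69% were lower with NaCl in glyI2, OE1, OE5 and WT, and 2.98% were higher in OE1. The glyI2 minus WT difference in MG response was called for 2, both lower, beside 1.5% of all tested genes. The list's median log2 fold change was -2.34 in glyI2 with MG and -0.77 in WT, against -0.09 and 0.00 over all tested genes.

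AT1G14960 was lower in every treatment comparison. It had 8, 6 and 2 reads in glyI2 with MG, against 186, 150 and 158 in glyI2 mock, and 5, 6 and 5 in WT with MG, against 200, 249 and 158 in WT mock. Its log2 fold change with MG was -5.10 ± 0.56 in glyI2 (edgeR adjusted p = 3.24e-08), -5.31 ± 0.57 in OE5 (edgeR adjusted p = 7.54e-08) and -5.08 ± 0.56 in WT (edgeR adjusted p = 9.4e-08). In OE1 it had 3, 1 and 2 reads with MG, against 203, 270 and 170 in mock (edgeR adjusted p = 8.08e-09). With NaCl it was -2.48 ± 0.46 in glyI2 (edgeR adjusted p = 0.000758), -3.10 ± 0.47 in OE1 (edgeR adjusted p = 0.000103), -2.90 ± 0.47 in OE5 (edgeR adjusted p = 0.000193) and -2.48 ± 0.45 in WT (edgeR adjusted p = 0.000797). The MG and NaCl libraries lay below mock throughout.

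AT1G70880 and AT1G70860 lie between MLP34 and MLP43. AT1G70880 had 7, 9 and 2 reads in glyI2 with MG, against 102, 77 and 60 in mock, a log2 fold change of -3.91 ± 0.60 (edgeR adjusted p = 9.69e-06). In WT it had 8, 8 and 3 reads with MG, against 114, 50 and 89 in mock, a log2 fold change of -3.53 ± 0.60 (edgeR adjusted p = 7.74e-05). It was called with MG in OE1 (edgeR adjusted p = 0.000132) and OE5 (edgeR adjusted p = 0.000184) too. AT1G70860 had 0, 1 and 1 reads in glyI2 with MG, against 12, 8 and 12 in mock (edgeR adjusted p = 0.000118), and 1, 0 and 2 in WT with MG, against 11, 19 and 18 in mock (edgeR adjusted p = 0.000145). Its call in OE5, from 0, 1 and 1 reads with MG against 10, 8 and 3 in mock (edgeR adjusted p = 0.00754), ended without OE5 MG replicate 1 or OE5 mock replicate 1, at log2 fold changes of -2.63 and -2.65. AT1G23120 fell with MG in WT by 1.78 ± 0.37 on the log2 scale (edgeR adjusted p = 0.000985), and had 22, 10 and 29 reads with MG, against 63, 46 and 120 in mock. It was called lower with MG in glyI2 too, at a log2 fold change of -1.76. AT1G30990 had 3, 0 and 0 reads in OE5 with MG, against 20, 19 and 10 in mock (edgeR adjusted p = 0.00254), so all of its OE5 MG reads were in replicate 1. In WT with NaCl it had 4, 2 and 2 reads, against 13, 10 and 20 in mock (edgeR adjusted p = 0.0341). That NaCl call ended without WT mock replicate 1 (-2.52), WT mock replicate 3 (-2.21), WT NaCl replicate 1 (-2.81), WT NaCl replicate 2 (-2.45) or WT NaCl replicate 3 (-2.22). With MG, AT1G30990 was also called lower in glyI2 (-3.99) and WT (-3.17), and the WT call ended without WT MG replicate 3 (-2.91). Outside mock, AT1G70860 had at most 9 reads in a library (glyI2 with NaCl) and AT1G30990 at most 7 (OE5 with NaCl). In mock they reached 19 (WT) and 21 (glyI2). Both passed the expression filter only through mock libraries, so a call below mock was favoured in advance.

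AT3G26460 differed between treatments. It had 1.25, 1.48 and 1.24 CPM in glyI2 with MG, against 6.51, 15.1 and 8.33 in mock, a log2 fold change of -2.91 ± 0.43 (edgeR adjusted p = 4.44e-06). In OE1 with NaCl it had 20.01, 26.7 and 22.7 CPM, against 10.1, 6.36 and 10.9 in mock, a log2 fold change of 1.34 ± 0.38 (edgeR adjusted p = 0.036). Leaving out any 1 of these 6 OE1 libraries ended the NaCl call, with values between 1.14 and 1.49, as did leaving out the libraries low in CCA1, at 1.49. The glyI2 minus WT difference in MG response was -2.22 ± 0.56 for AT3G26460 (edgeR adjusted p = 0.0206). That call ended without glyI2 MG replicate 1 (-2.18), glyI2 MG replicate 3 (-2.13), glyI2 mock replicate 2 (-1.79), WT MG replicate 1 (-1.95) or WT mock replicate 3 (-1.94). AT4G14060 had 0, 1 and 1 reads in glyI2 with MG, against 33, 20 and 30 in mock (edgeR adjusted p = 0.000208), and 22, 13 and 10 in WT with MG, against 49, 35 and 5 in mock. Its difference in response passed the threshold (edgeR adjusted p = 0.0478). The call ended in 9 of 12 fits that left out 1 library, at edgeR adjusted p between 0.0625 and 0.126, and was kept only without glyI2 mock replicate 2, WT MG replicate 3 or WT mock replicate 1. It also ended without the libraries low in CCA1 (edgeR adjusted p = 0.0888).

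The most abundant of the further family genes were not called with MG. AT4G23670 had 531, 772 and 659 CPM in glyI2 with MG, against 481, 1195 and 499 in mock, and 934, 557 and 794 CPM in WT with MG, against 787, 980 and 687 in mock. Its groups overlapped in both genotypes. AT4G23680, the direct neighbour of AT4G23670, had more reads in each MG library than in any mock library of its genotype. They were 12052 to 15548 in glyI2 with MG, against 5435 to 10728 in mock, and 14746 to 16514 in WT, against 7503 to 13678. In OE1 it had 11283 to 17528 reads with MG, against 5084 to 8021 in mock, and in OE5 11317 to 17321, against 4782 to 9650. These read numbers are not scaled, and AT4G23680 was not called with MG in any genotype. In mock, edgeR called 0 of the 12 genes in glyI2, OE1 or OE5 against WT, beside 0.0434%, 0.053% and 0.0386% of all tested genes. At an unadjusted p under 0.05 there were 0, 2 and 2, and DESeq2 called 0 in each.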

How the data were processed

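The authors deposited, for each RNA library, whole-number read counts and FPKM values by gene. Per the submitters' processing notes, HISAT2 2.0.4, HTSeq and TAIR10 were used; no source used here gives the strand setting. The deposited counts were tested with edgeR 4.0.16 in R 4.3.3 (quasi-likelihood, robust, TMM scaling, default expression filter, Benjamini-Hochberg adjustment over 20748 genes, 12 group means over 36 libraries, no replicate term). SE is the log2 fold change divided by the square root of F. CPM are those counts divided by the TMM-scaled library size; the authors' FPKM served only for levels between genes. The test was checked on simulated data. The biological coefficient of variation was 28.3%. Replicate pairs differed beyond sampling noise (chi-square per gene 14.9 to 265 over 36 pairs), so none was counted as 1 library deposited again; this does not show separate cultures.

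Members and gene lists were chosen with earlier results of these data known. The text names all members, the other family genes called (at most 4 a comparison by adjusted p, a gene so named then also in other comparisons), AT4G23670 and AT4G23680 (chosen after their values were seen), the 3 genes most like each member, GLYI2, GLYII4 and CCA1. Alternatives were DESeq2 1.42.0, RLE scaling, no filter, only the compared groups, the replicate number as a block, leaving out each library, and, chosen after seeing the data, leaving out the libraries low in CCA1 (below 2 log2 CPM). A planned search of promoters was not run, and no sequences are shown.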

Additional observations from a re-analysis of the deposited data

Results flagged for a closer look

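The interaction term of edgeR's fit, glyI2 minus WT in MG response, passed the threshold for 4 members and 2 further family genes. For the members, chosen from these same counts, the values are a description and no evidence of a difference. They were -4.95 on the log2 scale for MLP328, -3.38 for MLP34 and -2.42 for MLP329. For MLP165 the value was -1.07, and 12 of 18 alternatives ended its call, 10 of them by leaving out 1 library. Among the further family genes it was -2.22 for AT3G26460, whose call ended in 5 of 12 fits that left out 1 library. It was -4.44 for AT4G14060, which rests on 0, 1 and 1 reads in glyI2 with MG, and whose call ended in 9 of those 12 fits, with RLE scaling, with no filter, with only the compared groups and without the libraries low in CCA1.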

How the results depend on the processing

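No member or family gene that was called reversed its direction under any alternative run. The counts in this section do not cover every comparison of each fit. The number of all tested genes called also differs between fits, so nothing is read from these counts. With only the compared groups fitted, members called lower with NaCl were 0 in glyI2, 0 in OE1, 0 in OE5 and 2 in WT, and DESeq2 also gave 2 in WT. Further family genes then called were 1 lower in the glyI2 minus WT MG response, 2 lower in OE5 with MG and 1 higher in WT with NaCl. That MG response count was also 1 with no filter, with RLE scaling and without the libraries low in CCA1. DESeq2 gave, with NaCl, 1 further gene higher in glyI2, 2 higher and 2 lower in OE5, and 1 higher in WT. Without the libraries low in CCA1, members called higher were 1 in OE5 with NaCl and 1 in WT with MG, and further genes with NaCl were 0 higher in OE1, 1 higher in OE5 and 1 lower in WT. The cause was not tested.

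Same-numbered libraries had correlations of -0.60 to 0.81 between their deviations from group means, with a median of 0.18 and 120 of 198 pairs over 0.1. Libraries with different numbers had a median of -0.08 and 102 of 396 pairs over 0.1. Same-numbered libraries thus deviated together more often, but not in every pair, and the labels name no shared batch, so the numbers were not taken to pair libraries. With the replicate block, members called with NaCl were 3 lower in glyI2, 2 lower in OE1, 2 lower in OE5 and 3 lower in WT, and with MG 1 was higher in WT (MLP423, 0.95). The block added MLP34 with NaCl in glyI2 (-0.99), OE1 (-1.26), OE5 (-1.11) and WT (-1.09), and MLP328 in WT (-0.96). Further genes called with the replicate block and NaCl were 1 higher and 2 lower in each of glyI2, OE1 and OE5. In WT they were 1 higher and 3 lower.

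Leaving out 1 library gave members called lower with NaCl of 1 to 2 in glyI2, 0 to 1 in OE1 and 0 to 1 in OE5, and 0 to 1 higher in WT with MG. Over all tested genes, these fits called 260 to 757 lower with NaCl in glyI2, against 538 in the main fit. They called 225 to 503 lower in OE1, against 487, and 231 to 574 in OE5, against 463. With MG in WT, 1002 to 1287 of all tested genes were higher, against 1331. Further genes ranged from 0 to 2 lower in the glyI2 minus WT MG response. With NaCl they ranged from 0 to 1 higher in glyI2, 0 to 0 higher and 1 to 2 lower in OE1, 0 to 1 higher and 1 to 2 lower in OE5, and 1 to 2 lower in WT. TPM rebuilt for WT mock were 323 for MLP28, 286 for MLP328, 221 for MLP423, 186 for MLP329, 18.8 for MLP165 and 9.06 for MLP168, and the order of members was that of FPKM in 11 of 12 groups. Gene lengths for these TPM came from the same counts and FPKM, so that order was nearly fixed in advance and checks little. Of the 24 genes most alike, Spearman correlation kept 5 and group means kept 5. Intervals for genes with under 10 reads are set by depth.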
